A study of Saccharomyces cerevisiae with 2 samples.

Results

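Chitin, a polymer of N-acetylglucosamine, is a minor but load-bearing part of the wall of budding yeast. It is made by a family of synthases at the plasma membrane, tied to glucan by crosslinking transglycosylases, and cut by a chitinase when mother and daughter cells part. Yeast is known to deposit extra chitin through Chs3 when its wall is damaged. The 9 genes described here were chosen by name as the chitin synthases CHS1, CHS2 and CHS3, the Chs3 partners CHS5, CHS7 and SKT5, the crosslinkers CRH1 and UTR2, and the chitinase CTS1. They are 9 of the 6207 features of the array.

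The cells were a mid2 mutant of Saccharomyces cerevisiae in the genetic background BY4741, which is haploid and of mating type a. How MID2 was altered is not stated in the labels. The protein sits in the plasma membrane and signals wall damage to the kinase Slt2. The mutation was shared by the treated and the untreated cells, and no wild-type array was analysed here. RNA of cells given 30 µg/ml of the chitin- and glucan-binding dye Congo Red in rich medium at 24 °C and collected at 4 h was hybridised together with RNA of cells from the same divided culture that had been left without the dye. There were 2 such arrays with swapped dyes, treated RNA being labelled with Cy3 on array 1 and with Cy5 on array 2. Nothing in the labels says whether these come from separate cultures, so the p-values measure only the spread between these arrays, which may be technical.

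Of the 9 genes, 7 had a value on both arrays, against 44.1% of all features (2738 of 6207). SKT5 (YBL061C), the activator of Chs3, and CHS5 (YLR330W), a core part of the exomer coat that carries Chs3 to the cell surface, had none on either array, as did 2673 features in all. The reason for empty entries is not stated. The gene order of yeast assembly R64 places CHS5 close to MID2, with 1 protein-coding gene between them, and MID2 had no value either. Of the Chs3 machinery among the 9 genes, the table thus holds the synthase gene itself and CHS7.

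Each value is a log2 ratio of the treated and untreated channels as the authors deposited it, so that 1 is a 2-fold difference, and no signal intensities were at hand. Which way the ratios run is not stated. The columns correlated positively across features in spite of the dye swap (Pearson r = 0.48, Spearman rho = 0.34, with genes not independent). That would be seen if both had been turned to a common direction. Whether a bias of the dyes adds to this correlation was not tested. The control feature 3XSSC had 0.48 on array 1 and 0.51 on array 2, and the control feature Arabidopsis had −2.52 and 0.53. Treated over untreated is the usual direction and is called likely here, and the signs below are those of the deposited ratios. The median of all 2738 features was −0.24, which lies below 0, so values relative to that median are given too.

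CRH1 (YGR189C) and CTS1 (YLR286C) had clearly positive ratios on both arrays, the side that is likely higher with Congo Red, and UTR2 (YEL040W) a smaller positive one. The synthase genes CHS1 (YNL192W), CHS2 (YBR038W) and CHS3 (YBR023C) were negative on both arrays, with CHS2 and CHS3 close to the median of all features. CHS7 (YHR142W) was near 0. No gene of the set passed the test: limma gave 0 of 7 at a Benjamini-Hochberg adjusted p under 0.05, against 0% of all features, and the smallest adjusted p of the table was 0.123. Before adjustment 2 of the 7, CRH1 and CTS1, had a limma p under 0.05, against 13.6% of all features. With 2 arrays an exact test that turns signs cannot go below p = 0.5, whereas limma borrows its estimate of the spread from all features.

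A rule of size was set beside the test: a mean of at least 2-fold, the same sign on both arrays and at least 1.5-fold on each. CRH1 and CTS1 met it on the positive side, where 4.13% of all features did (113 of 2738). None of the 7 met it on the negative side, where 2.81% did (77 features). Centring each array on its median turned these counts over all features to 162 positive and 35 negative, and CRH1 and CTS1 still met the rule. The signs of the arrays were equal for all 7 measured genes, 4 positive and 3 negative, against 70.3% of all features. Relative to the median of each array the same split held, 4 above and 3 below on both, against 29.3% of all features on either side. On array 1 CHS7 was positive by a mere 0.0053, and CHS3 lay below the median by a mere 0.0013.

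**Figure D1:**
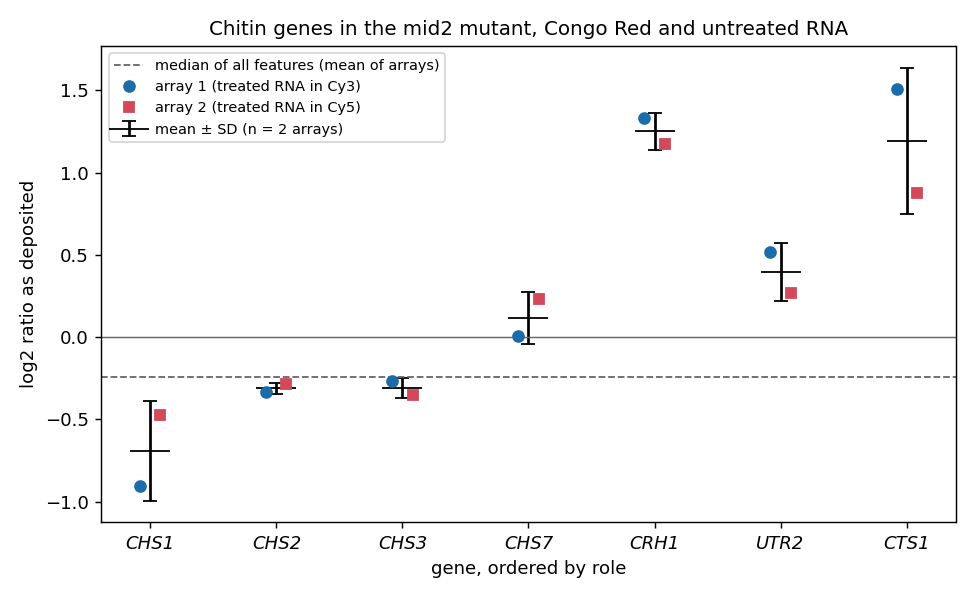
Log2 ratio as deposited (vertical axis) of the 7 measured chitin genes, ordered by role along the horizontal axis, with array 1 as circles, array 2 as squares, and the mean with its SD (n = 2) as a bar. CRH1 and CTS1 stand above the rest on both arrays, and CHS1, CHS2 and CHS3 lie below 0 on both, around or below the dashed median of all features at −0.24.

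Chs1 is the synthase known to repair the wall after cell separation, when the chitinase has opened the septum. CHS1 had a log2 ratio of −0.90 on array 1 and −0.47 on array 2, the lowest mean of the measured chitin genes at −0.69 ± 0.30 (SD, n = 2). Both arrays were negative, with the larger size on array 1. The limma interval of its mean ran from −1.41 to 0.03 at 95% (adjusted p = 0.367), so a ratio of 0 lay just inside it. Relative to the median of all features CHS1 stood at −0.45, and 12.6% of features had a lower mean. A mean of −0.69 is a 1.61-fold difference.

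Chs2 lays down the primary septum at division. CHS2 had −0.34 on array 1 and −0.29 on array 2, a mean of −0.31 ± 0.035 (SD, n = 2). The arrays nearly coincided for this gene, and only 6.65% of features had a smaller SD. Against the median of all features CHS2 stood at −0.07, in the middle of the table, with 40.1% of features lower.

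Chs3 makes most of the chitin of the cell, in the ring at the bud neck and in the lateral wall, and is the synthase behind the extra chitin of stressed walls. CHS3 had −0.27 on array 1 and −0.35 on array 2, a mean of −0.31 ± 0.06 (SD, n = 2). Its position was that of CHS2, at −0.07 relative to all features with 40.2% of features lower. For CHS3 the limma interval was −0.98 to 0.36 (adjusted p = 0.563). On the scale as deposited, a 2-fold difference lay outside that interval, on the negative side only just. An interval from 2 arrays, whose spread may be technical, cannot exclude such a difference. Chs3 is known to be controlled largely through its transport and activation, and neither is seen in a transcript ratio.

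Chs7 is the membrane protein of the endoplasmic reticulum that lets Chs3 leave that compartment. CHS7 had 0.0053 on array 1 and 0.23 on array 2, a mean of 0.12 ± 0.16 (SD, n = 2). Its spread was larger than its mean. Because most features were slightly negative, CHS7 still lay above them, at 0.36 relative to the median and with 79.4% of features lower.

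Crh1 and Utr2, also called Crh2, join the ends of chitin chains to glucan in the wall. CRH1 is moreover one of the genes that textbook accounts list as induced through Slt2. CRH1 had 1.33 on array 1 and 1.17 on array 2, which are ratios of 2.51 and 2.25. The mean was 1.25 ± 0.11 (SD, n = 2), a 2.38-fold difference and the highest among the measured chitin genes. Its limma interval ran from 0.58 to 1.92 (unadjusted p = 0.00577, adjusted p = 0.231). CRH1 ranked 109 from the top of 2738 features by its mean, with 94.2% of features lower on array 1 and 97.0% on array 2. The features nearest to it over both array values were SEC24 at a distance of 0.080 on the log2 scale, with 1.39 and 1.23, SED1 at 0.22 and LPD1 at 0.22. These encode a subunit of the COPII vesicle coat, an abundant wall glycoprotein and a mitochondrial dehydrogenase, and nearness over only 2 arrays is a weak measure of likeness.

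UTR2 had 0.52 on array 1 and 0.27 on array 2, a mean of 0.39 ± 0.18 (SD, n = 2) or a 1.31-fold difference. Both arrays were positive and neither reached 1.5-fold. The limma interval of −0.29 to 1.08 included 0 (adjusted p = 0.497). Relative to all features UTR2 stood at 0.64, with 87.4% of features lower. The paralogues thus differed in size: CRH1 exceeded UTR2 by 0.81 on array 1 and 0.90 on array 2, a difference of 0.86 ± 0.07 (SD, n = 2). This difference was not tested. Whether the spots of these related genes cross-hybridise was not tested either.

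Cts1 is the secreted endochitinase that cuts the septum on the way to cell separation. CTS1 had 1.51 on array 1 and 0.88 on array 2, ratios of 2.84 and 1.84. The mean was 1.19 ± 0.44 (SD, n = 2), a 2.29-fold difference. Both arrays were positive, yet the arrays differed more than for any other measured chitin gene, and 65.7% of features had a smaller SD. The limma interval was 0.42 to 1.97 (unadjusted p = 0.0117, adjusted p = 0.318). CTS1 ranked 116 from the top by its mean. In RNA of whole cultures, a change in the share of cells that express a gene and a change in transcript per cell cannot be told apart. On array 2 alone CTS1 did not reach 2-fold, so CRH1 was then the single chitin gene that did.

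Ordered by mean ratio the genes ran CRH1, CTS1, UTR2, CHS7, CHS3, CHS2 and CHS1. Of the 21 pairs of genes, 19 had the same order on both arrays. The 2 pairs that switched were neighbours: CRH1 with CTS1, which differed by −0.18 on array 1 and 0.29 on array 2, and CHS3 with CHS2, which differed by 0.07 and −0.07. UTR2 and CHS7 kept their order but differed by less than the spread, 0.28 ± 0.34 (SD, n = 2). CTS1 stood above UTR2 by 0.80 ± 0.27 (SD, n = 2), CHS7 above CHS3 by 0.43 ± 0.22 (SD, n = 2), and CHS2 above CHS1 by 0.38 ± 0.27 (SD, n = 2). On each array every one of CRH1, UTR2 and CTS1 lay above every one of the 3 synthase genes: on array 1 the lowest of CRH1, UTR2 and CTS1 had 0.52 and the highest synthase gene −0.27, and on array 2 these values were 0.27 and −0.29. The narrowest gap between these sets was between UTR2 and CHS3, 0.70 ± 0.12 (SD, n = 2) in the mean. These sets were not among the planned comparisons, and CHS7, which lay between them on both arrays, is in neither. Their separation was not tested.

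**Figure D2:**
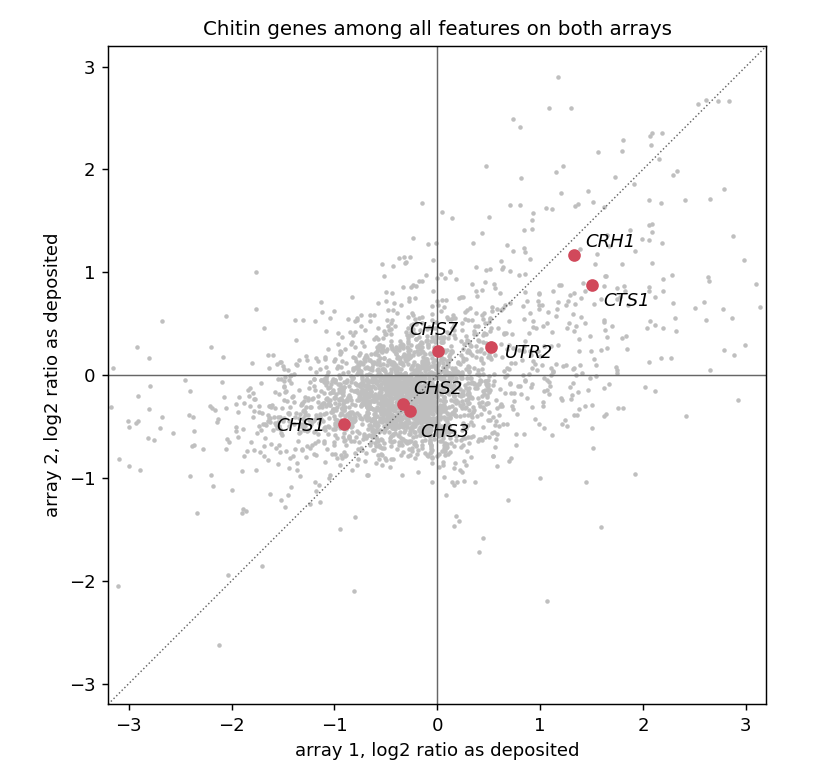
Log2 ratio on array 1 (horizontal) against array 2 (vertical) for 2696 features with values on both arrays in grey, with the 7 chitin genes as labelled red points and a dotted line of equal values; 42 features outside ±3.2 are not drawn. CRH1 and CTS1 lie outside the dense centre in the upper right, CHS1 at its edge in the lower left, and CHS2 and CHS3 inside the dense centre.

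The SD between arrays had a median of 0.16 over the 7 chitin genes and ran from 0.035 to 0.44, against a median of 0.31 for all features, a difference that was not tested. Array 1 was the wider array, with an SD over features of 0.96 against 0.57 on array 2. Among the chitin genes CTS1, CHS1, UTR2, CRH1 and CHS2 had the larger size on array 1, and CHS3 and CHS7 on array 2. The median of the 7 lay 0.36 above that of all features, at 0.27 on array 1 and 0.41 on array 2, and the gene at that median was CHS7.

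Had the authors left the ratios in a fixed order of the dyes, the treatment would lie in the difference between the arrays and not in their mean. Under that reading CRH1 would have −0.079, UTR2 −0.13 and CTS1 −0.31, while CHS1 would have 0.21, CHS2 0.025, CHS3 −0.042 and CHS7 0.11. No chitin gene would then reach 1.5-fold.

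**Figure D3:**
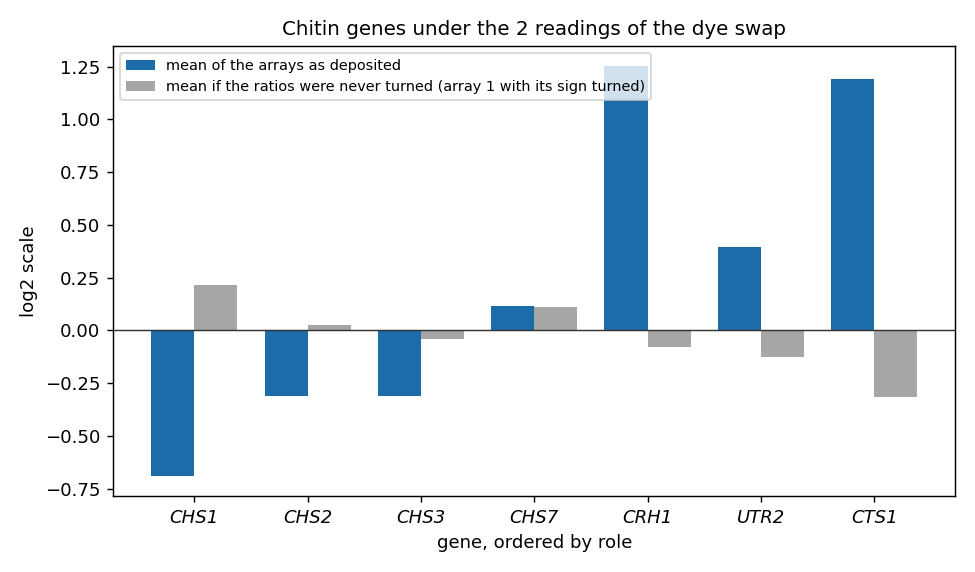
Mean log2 ratio (vertical axis) of each measured chitin gene as deposited, in blue, beside the value it would have if the ratios had never been turned, in grey. The blue bars reach 1.25 for CRH1 and 1.19 for CTS1, and the largest grey bar is that of CTS1 at −0.31.

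The remaining genes of the chitin pathway and of the processes around it were thinly covered. UDP-N-acetylglucosamine, the substrate of the synthases, is made by GFA1, GNA1, PCM1 and QRI1. GFA1, the first and limiting enzyme, had no value. Limma called 0 of the other 3, and none met the rule of size. PCM1, a phosphoacetylglucosamine mutase, had 0.79 on array 1 and 0.98 on array 2, a mean of 0.88 ± 0.13 (SD, n = 2). It was the single one of the 3 with an unadjusted p under 0.05 in limma (adjusted p = 0.333), against 13.6% of all features. GNA1, the acetyltransferase of the step before, was negative on both arrays with −0.37 and −0.51. QRI1, which makes the final nucleotide sugar, had 0.73 and −0.30, with opposite signs. The steps of this short pathway thus did not share a sign.

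Of 13 further genes for the transport and anchoring of Chs3, 2 had values on both arrays and 9 had none. APM1, a subunit of the AP-1 adaptor that recycles Chs3, had −2.67 on array 1 and −0.41 on array 2, and missed the rule of size on array 2. RCR1, a membrane protein of the endoplasmic reticulum known for the Congo Red resistance that it gives when overproduced, had −0.05 and 0.67. Limma called neither.

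Among 9 genes that act with Chs2 at the contractile ring, 4 were measured on both arrays, and limma called 0. INN1 had −2.76 on array 2 and no value on array 1. IQG1, the IQGAP protein needed for the ring, met the rule of size on the negative side with −1.41 and −0.79. Its mean was −1.10 ± 0.44 (SD, n = 2, limma unadjusted p = 0.0157, adjusted p = 0.331). MOB1, a partner of a mitotic exit kinase, was the highest of the 4 at −0.19 ± 0.06 (SD, n = 2), near the median of all features. Centring turned its sign to give 0.030. The septins CDC10 and SHS1, which form the ring at the neck where Chs3 is anchored, had means of −0.21 ± 0.13 (0.013 after centring) and −0.51 ± 0.14 (SD, n = 2), and 3 other septins had a value on array 2 only.

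Other enzymes that act on chitin chains gave little. CDA1, a chitin deacetylase of the spore wall, had −1.33 and −0.48, a mean of −0.91 ± 0.61 (SD, n = 2). CRR1, the relative of CRH1 and UTR2 that works in spores, had −1.19 on array 1 and no value on array 2. CTS2, a putative second chitinase, had −1.52 on array 2 and none on array 1. CDA2 had no value. Limma did not call CDA1 (unadjusted p = 0.0424, adjusted p = 0.363), whose sign was opposite to that of CRH1, UTR2 and CTS1.

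CTS1 acts in the parting of daughter from mother. Of 12 genes of daughter cell separation 5 were measured on both arrays, 4 of them above the medians of all features on both, where 29.3% of all features lay. SUN4, a wall protein of the septum, met the rule of size with 1.47 and 1.79, a mean of 1.63 ± 0.23 (SD, n = 2, limma adjusted p = 0.165). AMN1, a regulator of mitotic exit in daughter cells, had 1.33 and 0.43, a mean of 0.88 ± 0.63 (SD, n = 2, limma adjusted p = 0.363), and missed the rule of size. DSE3, a protein of the daughter bud neck, was lowest at −0.65 ± 0.58 (SD, n = 2). SCW11, a glucanase-like wall protein, and DSE2, a secreted protein of daughter cells, had 0.26 ± 0.20 and 0.06 ± 0.30 (SD, n = 2). Limma called 0 of the 5, and 2 of them, SUN4 and AMN1, had an unadjusted p under 0.05, against 13.6% of all features. DSE2 is also the chromosomal neighbour of CHS7 and had −0.15 and 0.27, beside 0.0053 and 0.23 for CHS7.

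CHS2 and CTS1 are known to be transcribed at set times of the cell cycle, so cycle genes were looked at beside them. In the list for G1 and S phase, PCL1, a cyclin, had −0.33 ± 0.18 and RNR1, a ribonucleotide reductase, 0.31 ± 0.02 (SD, n = 2). In the list for G2 and mitosis, CDC20, an activator of the anaphase-promoting complex, had −0.67 ± 0.74 and CLB1, a mitotic cyclin, 0.18 ± 0.33 (SD, n = 2). None of these 4 met the rule of size or was called by limma, and 9 other cycle genes listed had no value. Their part in the ratios of CHS2 and CTS1 was not tested.

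Among regulators of wall integrity, the pathway in which Mid2 sits, 3 of 7 were measured on both arrays, and limma called 0. RLM1, the transcription factor under Slt2 that is known to act on CRH1, had −0.86 and −0.60. Its mean was −0.73 ± 0.18 (SD, n = 2, limma unadjusted p = 0.0409, adjusted p = 0.363). Its sign was opposite to that of CRH1, and a link between these ratios was not tested. SLT2 had 0.35 on array 2 and no value on array 1, and PKC1 had −1.14 on array 1 and none on array 2. RHO1, the small GTPase at the head of the kinase cascade, was the highest of the 3 with both values at −0.20 ± 0.29 (SD, n = 2). Centring turned its sign to give 0.024. Over all these lists the rule of size took SUN4 and IQG1 alone.

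**Figure D4:**
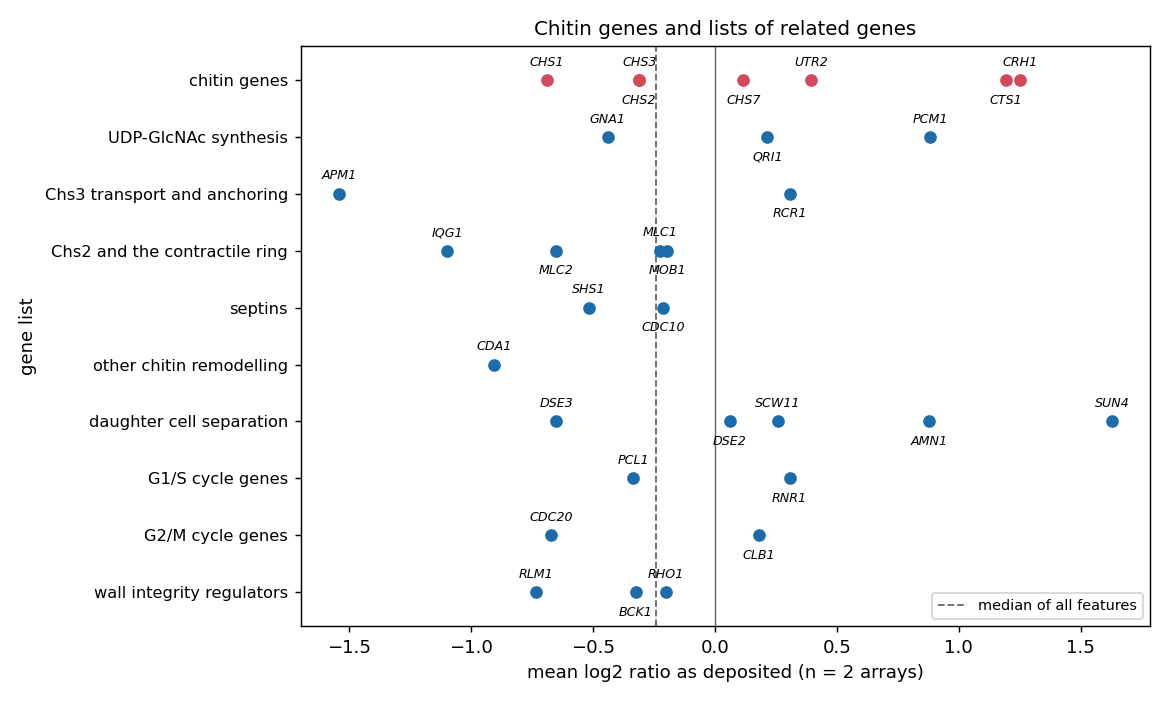
Mean log2 ratio as deposited (horizontal axis, n = 2 arrays) of each gene with values on both arrays, one row for each gene list, with the chitin genes in red. Within most lists the genes fall on both sides of the dashed median of all features at −0.24, and CRH1, CTS1 and SUN4 reach past 1 on the positive side.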

How the data were processed

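Per the labels' protocols, total RNA took up Cy5 or Cy3 during reverse transcription and was hybridised on 2-colour arrays. They mention 2 cultures with a dye swap each, which makes 4 arrays per condition, of which 2 were analysed here. The authors deposited 1 log2 ratio per feature and array, a scale read from the values: unlogged on base 2, all 2832 and 3440 ratios end at 4 decimals (relative tolerance 3e-09). Not given in the sources used here are the array type, scanner, normalization and filters. Ratios were used as deposited, without the 2 control features. The 2738 features with both values were fitted with lmFit and eBayes of limma 3.58.1 (R 4.3.3), two-sided, Benjamini-Hochberg adjusted over all of them at 0.05. The fit was also run on simulated data with 1 SD for all features. That run does not show how limma performs under the unequal spread of these data. Names come from the R64 gene table, which matched 5654 features. No sequences of these genes were at hand. Members, lists and tests were chosen with earlier results of these data known. All 9 members are described. Of each list the highest and lowest gene and any past the rule of size are named, and the 3 nearest features of CRH1 and of the lowest member, CHS1. GFA1, QRI1, INN1, CRR1, CTS2, CDA2, SCW11, DSE2, AMN1, SLT2, PKC1 and the chromosomal neighbours were chosen after their values were seen. One gene of the list of daughter cell separation is not reported here. Alternatives were centring, scaling of both arrays to one median absolute deviation and median, quantile normalization, robust moderation, other features, thresholds and size limits, other readings of the ratios' direction and single arrays. Figures were drawn with matplotlib 3.10.9.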

Additional observations from a re-analysis of the deposited data

How the results depend on the processing

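Each ratio already pairs treated and untreated RNA on one array. No further pairing was possible because the arrays form 1 group with no second group to pair. Centring, scaling, quantile normalization, robust moderation and the use of features with a value on either array left the sign of each of the 7 chitin genes as it was, and limma called 0 of them at adjusted p under 0.05 in each of these. As deposited it called 0 at adjusted p under 0.10 as well, and 2 at an unadjusted p under 0.05, against 13.6% of all features. CRH1 ran from 1.26 to 1.48 and CTS1 from 1.15 to 1.42 over centring, scaling and quantile normalization. Their adjusted p ran from 0.137 and 0.135 up to 1.00 over all alternatives. Ratios read as never turned gave 0 chitin genes past the rule of size, 11 features in all (limma called 3 features, none a chitin gene, with a smallest adjusted p of 4.47e-07, against 0 as deposited), and a median of −0.10 relative to all features; the signs of CHS1 (0.21), CHS2 (0.025), CRH1 (−0.079), UTR2 (−0.13) and CTS1 (−0.31) were then reversed. With both signs turned the means were 0.69 for CHS1, 0.31 for CHS2, 0.31 for CHS3, −0.12 for CHS7, −1.25 for CRH1, −0.39 for UTR2 and −1.19 for CTS1, and the median −0.36. A mean of at least 1.5-fold with equal signs, without a limit of size on each array, took 664 of 2738 features. It took 3 of the 7 chitin genes, namely CRH1, CTS1 and, on the negative side, CHS1. A mean of at least 3-fold, with 1.5-fold on each array kept, took 88 features and 0 chitin genes. A single array gave 1 (array 2, CRH1) or 2 (array 1) chitin genes of at least 2-fold, and 155 to 577 features; limma cannot be run on a single array, so this has no test. Signal over background is unknown here.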

Other observations

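Markers of mating type, listed as a description of the strain, had ratios of mixed sign. Of 6 genes of mating type a, to which BY4741 belongs, 4 had values on both arrays. The pheromone genes MFA1 and MFA2 had −0.43 and −0.82, and −0.68 and −0.98, on arrays 1 and 2, and the agglutinin gene AGA2 had −0.67 and −0.58. The receptor gene STE2 was split, with 2.02 on array 1 against −0.12 on array 2. None of these 4 was called by limma (adjusted p from 0.356 to 0.477, and 1 of 4, MFA2, at an unadjusted p under 0.05, against 13.6% of all features). Of 5 genes of mating type alpha, 1 had values on both arrays, the pheromone gene MF(ALPHA)2 with −0.98 and 0.07. A ratio gives no level, so these values do not show whether a transcript was present.

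Chromosomal neighbours of the chitin genes, named from the order of protein-coding genes in R64 and chosen with their values already seen, had mixed ratios. UTR2 lies beside CYC7, a cytochrome c gene, which had −0.80 and −1.38 on arrays 1 and 2, opposite in sign to 0.52 and 0.27 for UTR2. CHS3 lies between POA1, with −1.89 and −0.53, and SCO2, with −0.40 and −0.30, while CHS3 had −0.27 and −0.35, close to SCO2. CHS2, with −0.34 and −0.29, lies between SCO1, with −0.92 and −0.14, and ATP3, with 0.27 and −0.32. RPL42B, on the other side of CHS7 from DSE2, had −0.21 and −0.021. KIP1, beside the unmeasured SKT5, had −0.83 and 0.32. None of the 9 chitin genes overlaps a neighbouring protein-coding gene. The features nearest to CHS1 over both arrays were SOA1, MEI5 and CTR86, at distances from 0.031 to 0.038 on the log2 scale.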
